A study of Mus musculus with 13 samples.

Results

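The 10 macrophage identity genes were read tumor by tumor from a table of 24421 genes. The members were Csf1, Csf1r, Cd68, Mrc1, Marco, C1qa, C1qb, C1qc, Fcgr1 and Trem2, and all 10 were found by symbol. The libraries came from mice of the 202Mul/J line of FVB/N-TgN (MMTV-HER2/neu), in which the mouse mammary tumor virus promoter drives rat HER2/neu in the breast epithelium. The genotype label of every sample reads wild type, although the strain carries the transgene. Mammary glands without a tumor (n = 2) and primary untreated tumors (n = 3) came from mice that received no drug. Primary STV tumors (n = 3) came from mice given stavudine, a nucleoside reverse transcriptase inhibitor, in drinking water at 1 mg/mL, estimated at 200 mg/kg per day. Recurrent after DMAG tumors (n = 3) had regrown under injections of the HSP90 inhibitor 17-DMAG at 20 mg/kg, and recurrent after DMAG+STV tumors (n = 2) had regrown under both drugs. The paper describes the primary STV tumors as having developed in mice treated with stavudine. For recurrent after DMAG+STV tumors stavudine was started before tumors arose or once they had appeared, and the labels do not give which. No label gives the age of the mice at tissue collection or the reproductive state of the glands. The study asked whether stavudine changes tumor growth and relapse, and the members report on the macrophages within each tissue piece.

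Macrophages need signalling through Csf1r, a receptor tyrosine kinase whose ligands are Csf1 and Il34. Csf1 is secreted largely by stromal and epithelial cells, so of the members it is the signal rather than a mark of the macrophage itself. The other members serve the work of the cell: Cd68 lies in lysosome membranes, Mrc1 is the mannose receptor, Marco a scavenger receptor, Fcgr1 the high affinity receptor for IgG, Trem2 a lipid-sensing receptor, and the 3 C1q chains build the molecule that starts the classical complement pathway. In a piece of whole tissue, fewer macrophages and less RNA per macrophage cannot be told apart.

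The promoters of 8 members were found in the RefSeq promoter set (GRCm38.p6), all but Csf1r and C1qa, and the 250 bases before the start site were searched on both strands for GAGGAA, the core recognised by PU.1 and related ETS factors, of which PU.1 is the master factor of the myeloid lineage. The letters are held by 7 of these 8 promoters, and 23.1% of the 27025 promoters of the same length do. The exception is Csf1. The promoters of 4 macrophage genes and that of Csf1 are shown, each 5′ to 3′ on the strand of its gene, with GAGGAA or its reverse complement in capitals. They are C1qb (chr4:136886201-136886450, minus strand), Mrc1 (chr2:14229164-14229413, plus strand), Cd68 (chr11:69666171-69666420, minus strand), Trem2 (chr17:48346151-48346400, plus strand) and Csf1 (chr3:107760470-107760719, minus strand).
C1qb: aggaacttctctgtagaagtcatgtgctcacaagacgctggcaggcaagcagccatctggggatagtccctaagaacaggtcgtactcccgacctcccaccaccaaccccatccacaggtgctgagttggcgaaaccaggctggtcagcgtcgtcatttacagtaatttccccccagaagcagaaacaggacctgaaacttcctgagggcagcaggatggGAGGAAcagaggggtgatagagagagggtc
Mrc1: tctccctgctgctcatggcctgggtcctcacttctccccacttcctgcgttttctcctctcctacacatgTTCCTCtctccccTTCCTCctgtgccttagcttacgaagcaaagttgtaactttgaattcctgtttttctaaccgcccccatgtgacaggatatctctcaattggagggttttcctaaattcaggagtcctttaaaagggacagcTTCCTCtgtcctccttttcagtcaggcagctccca
Cd68: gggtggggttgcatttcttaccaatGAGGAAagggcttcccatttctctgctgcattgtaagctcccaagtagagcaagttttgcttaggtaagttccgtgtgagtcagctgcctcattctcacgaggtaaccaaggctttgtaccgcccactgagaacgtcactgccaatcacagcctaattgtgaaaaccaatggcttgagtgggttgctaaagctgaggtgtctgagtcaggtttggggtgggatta
Trem2: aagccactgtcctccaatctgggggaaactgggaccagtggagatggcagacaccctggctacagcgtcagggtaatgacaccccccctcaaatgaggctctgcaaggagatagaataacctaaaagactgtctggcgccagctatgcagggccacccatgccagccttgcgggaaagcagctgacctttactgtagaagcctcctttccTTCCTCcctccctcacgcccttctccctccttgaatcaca
Csf1: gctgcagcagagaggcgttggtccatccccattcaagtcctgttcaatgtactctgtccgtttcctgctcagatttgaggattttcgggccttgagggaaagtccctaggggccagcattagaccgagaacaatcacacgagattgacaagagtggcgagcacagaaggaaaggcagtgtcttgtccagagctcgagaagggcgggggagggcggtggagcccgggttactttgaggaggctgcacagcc
Mrc1 has 3 copies, at -180, -167 and -35 from the start site, counted at the first base of each. C1qb has 1 copy at -30 and Trem2 has 1 at -40. The letters TGANTCA, bound by AP-1, occur in 2 of the 8 promoters, Cd68 and Trem2, against 6.87% of all promoters, and do not overlap GAGGAA in either. TTGCNNAA, a C/EBP sequence, occurs in Cd68 alone of the 8 (9.55% of all promoters), and the MAF core TGCTGAC in 0 of the 8 (3.72% of all promoters). These are matches of letters and not sites of binding.

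Levels are given as CPM, each count divided by its library's total and scaled to a common size with TMM factors, which correct for libraries in which a few genes take many of the reads. Totals ran from 39921388 to 56887708 counts. The TMM factor was 0.493 in mammary gland replicate 2 and between 0.999 and 1.12 in the other 12 libraries. Levels in that gland therefore rest on the factor. In it 7 milk protein genes held the highest summed CPM (733218), a value raised by the low factor and not a share of reads. Adgre1, which encodes the macrophage antigen F4/80 and is not a member, was present in all 13 libraries at 9.38 to 32.5 CPM.

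Per exon base the C1q chains led. Their median levels across the 11 tumors, in RPKM (CPM per kilobase of exon), were 33.6 for C1qa, 25.5 for C1qc and 23.6 for C1qb. Cd68 at 10.5, Csf1r at 10.1 and Csf1 at 9.83 RPKM followed, and their ranges across tumors overlapped. Trem2 was at 5.50, Mrc1 at 3.87 and Fcgr1 at 1.62 RPKM, and Marco was nearly absent at 0.0212. Csf1r shares 873 of its 4885 exon bases with Hmgxb3 on the opposite strand, and its level carries that uncertainty. No other member shares exon bases with another gene.

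The members varied unequally among the tumors. The SD of log2 CPM over the 11 tumors was 1.07 for Mrc1, larger than that of 88.5% of genes, and 0.29 for Csf1, larger than that of 40.6%. The other members apart from Marco lay between 0.42 and 0.54, and the median gene was at 0.37. The plot of the members by library shows 1 tumor apart from the others. Recurrent after DMAG replicate 1 had the highest level of all tumors for 8 of 10 members, the exceptions being Trem2 and Marco.

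**Figure D1:**
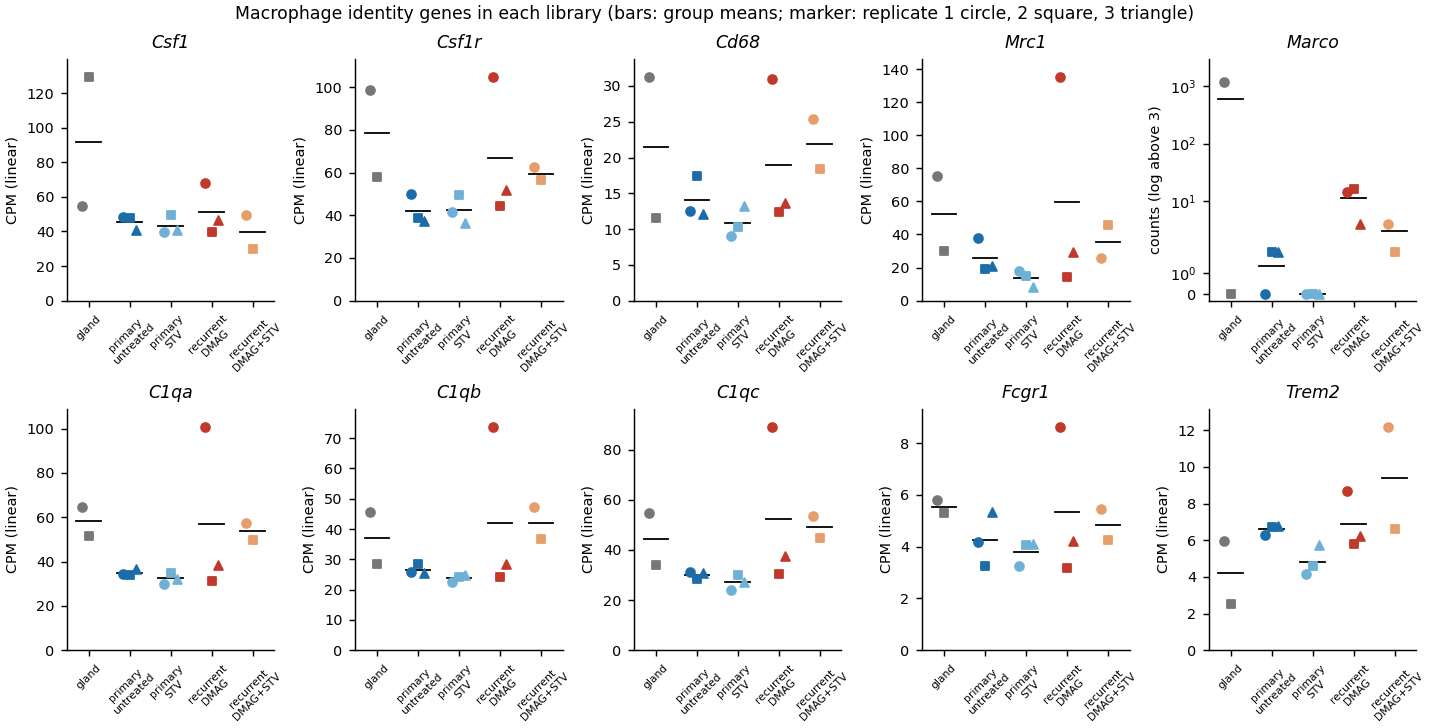
Level of each member in each of the 13 libraries, in CPM on a linear axis, with Marco in counts on an axis that is logarithmic above 3. Points are libraries, marked circle, square and triangle for replicates 1, 2 and 3, and bars are group means. Recurrent after DMAG replicate 1 (red circle) reached 105 CPM for Csf1r and 135 CPM for Mrc1, above the 10 other tumors.

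Tumors were first set against the glands, which asks whether a HER2/neu tumor holds more or less macrophage RNA than the tissue it arose in. Csf1r stood at 98.5 and 58.1 CPM in the glands. In primary untreated tumors it stood at 50.1, 38.9 and 37.4, in primary STV tumors at 41.3, 49.6 and 36.2, in recurrent after DMAG tumors at 105, 44.1 and 51.6, and in recurrent after DMAG+STV tumors at 62.7 and 56.3. Of the 11 tumors 9 lay below both glands and 1 above both. The mean of the 4 tumor groups was lower by a log2 change of -0.60 (SE 0.28, edgeR quasi-likelihood test, adjusted p = 0.185), which did not pass the threshold.

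C1qa gave much the same picture. It was at 64.6 and 51.7 CPM in the glands, at 34.4, 34.1 and 36.5 in primary untreated tumors and at 30.1, 34.9 and 32.2 in primary STV tumors. Recurrent after DMAG tumors were at 101, 31.0 and 38.5 CPM and recurrent after DMAG+STV tumors at 57.5 and 49.7. The 6 primary tumors lay below both glands and close together, while the recurrent tumors ran from below the glands to far above them. The log2 change was -0.43 (SE 0.32, adjusted p = 0.389).

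Across all genes 1785 of 17135 differed between tumors and glands, 10.4% of those tested, 275 higher and 1510 lower in tumors. Of the 10 members 2 passed, Marco and Csf1, both lower in tumors and both resting on a single gland. Marco had 1200 counts in mammary gland replicate 1 and 0 in replicate 2, where a count of 0 allows up to 3, and between 0 and 16 counts in every tumor, so the groups overlapped. Its adjusted p was 0.0078, and without mammary gland replicate 1 the fitted direction turned. That gland also carried the T cell markers: the 8 genes of that list found in the table summed to 139 CPM in it, to 7.89 in the other gland and to between 3.12 and 10.4 in the tumors, with none at 0 in any library. The part of lymphoid tissue in the Marco result was not tested.

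Csf1 was at 54.5 and 129 CPM in the glands, and the tumors ran from 30.0 to 68.3 CPM. Mammary gland replicate 2, with the low TMM factor, was above every tumor, and replicate 1 was within their range. The log2 change was -1.03 (SE 0.28, adjusted p = 0.0396). With library totals in place of TMM factors it was -0.40 (adjusted p = 0.287), and without mammary gland replicate 2 it was -0.20 (adjusted p = 0.801). Of the 13 omissions of a single library it passed in 3, those of mammary gland replicate 1, recurrent after DMAG replicate 1 and recurrent after DMAG+STV replicate 1, and in the 9 omissions of another tumor the adjusted p was between 0.055 and 0.0675.

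Trem2 was the 1 member with a positive fitted change in tumors. It was at 5.94 and 2.53 CPM in the glands and at 6.29, 6.75 and 6.76 CPM in primary untreated tumors. Primary STV tumors had 4.14, 4.57 and 5.76 CPM, recurrent after DMAG tumors 8.68, 5.81 and 6.23, and recurrent after DMAG+STV tumors 12.2 and 6.60. Of the 11 tumors 7 were above both glands and none was below both. The log2 change was 0.67 (SE 0.34, adjusted p = 0.22), and without mammary gland replicate 1 it was 1.45 (adjusted p = 0.0276).

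Mrc1 was at 75.1 and 29.7 CPM in the glands and Cd68 at 31.3 and 11.6, each with replicate 1 far above replicate 2. The tumors ran from 8.20 to 135 CPM for Mrc1 and from 9.09 to 31.0 CPM for Cd68, so both genes overlapped, and their log2 changes were -0.83 (SE 0.64) and -0.43 (SE 0.38). Those of Fcgr1 (-0.29), C1qc (-0.22) and C1qb (-0.19) were smaller than their SE. None of these 5 genes passed.

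The median log2 change of the 10 members was -0.43, beside -0.02 over all genes. Without mammary gland replicate 1 the median was 0.11, with 6 of 10 members positive. Without recurrent after DMAG replicate 1 it was -0.59, with 4 of 10 members passing (Csf1r and C1qa with Marco and Csf1), beside 18.2% of genes. With library totals alone the median over all genes moved to 0.37 and that of the members to -0.20, and C1qb, C1qc and Fcgr1 turned positive. The direction of those 3 genes between tumors and glands differed with the scaling.

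A ratio within a library does not depend on scaling between libraries. Trem2 per exon base was 25.8% and 18.6% of Csf1r in the glands. In the 11 tumors it ran from 35.4% to 83.2%, with a median of 53.7%. All 11 tumors were above both glands, which held for the ratio to Csf1r of 6.87% of genes. C1qb and C1qc were above both glands on this ratio in 10 of 11 tumors, and Cd68, C1qa and Fcgr1 in 5, 3 and 2. Since this ratio was singled out after its values were seen, no test was attached to it.

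**Figure D2:**
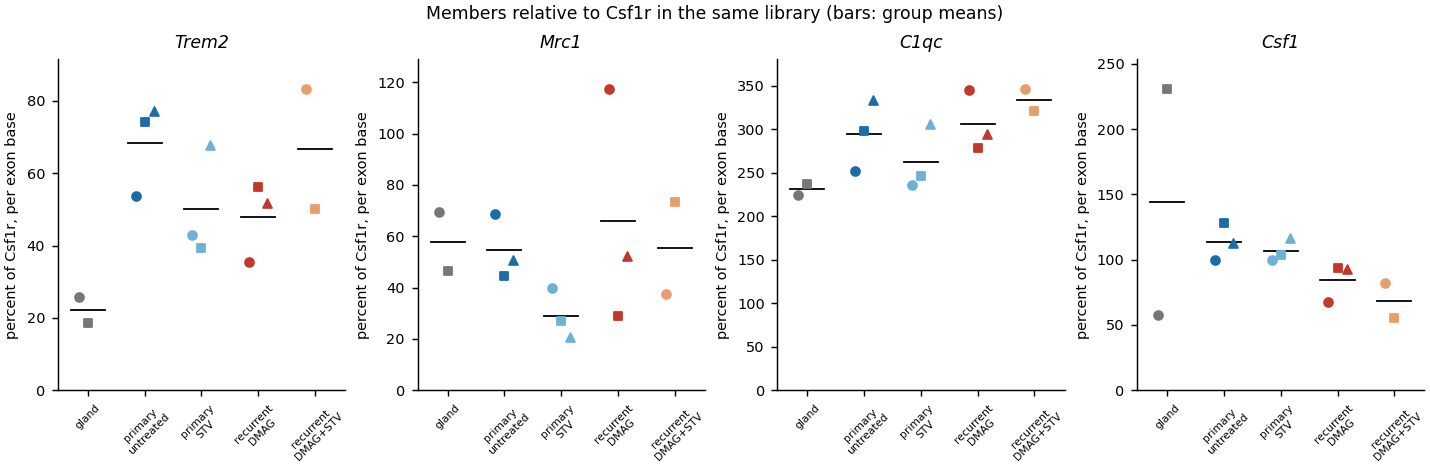
Trem2, Mrc1, C1qc and Csf1 as a percent of Csf1r in the same library, both per exon base, with bars for group means and markers for replicates 1 (circle), 2 (square) and 3 (triangle). Trem2 lies above both glands (25.8% and 18.6%) in all 11 tumors, and Csf1 lies between 99.5% and 128% in primary tumors and between 55.0% and 93.5% in recurrent tumors.

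Stavudine alone was assessed in primary tumors. Csf1r was at the same level with and without the drug (42.4 ± 6.72 CPM in primary STV and 42.1 ± 6.96 in primary untreated tumors, SD, n = 3 each), at a log2 change of -0.00 (SE 0.30). Mrc1 was at 18.0, 14.7 and 8.20 CPM under stavudine and at 37.9, 19.0 and 20.8 without it. Every stavudine tumor was below every untreated tumor, by a log2 change of -0.93 (SE 0.73, adjusted p = 1). Trem2 and C1qb were placed the same way, at log2 changes of -0.47 (SE 0.27) and -0.17 (SE 0.36).

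The log2 changes of Cd68 (-0.39), Fcgr1 (-0.18), C1qc (-0.16), C1qa (-0.13) and Csf1 (-0.09) came from groups that overlapped.

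Among tumors Marco passed the filter on low counts only through the recurrent tumors, so counts of members between tumor groups are given over the 9 others. Mrc1, Trem2 and C1qb, 3 of these 9, did not overlap in the lower direction, as 5.83% of genes did. None of the 9 reached an unadjusted p under 0.05, and none of 16870 genes passed after adjustment (edgeR), while 634 had an unadjusted p under 0.05 and DESeq2 called 17. All 9 fitted changes were at or below 0, with a median of -0.17 beside -0.03 over all genes, but that of Csf1r turned positive under several settings, DESeq2 size factors among them. Marco had 0 counts in the 3 primary STV tumors and 0, 2 and 2 in the untreated ones, all within the 3 counts that a count of 0 allows.

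Recurrence after 17-DMAG was compared with primary untreated tumors. C1qc was at 89.2, 30.2 and 37.4 CPM in recurrent after DMAG tumors and at 31.1, 28.6 and 30.7 in primary untreated tumors. Replicate 1 was far above the primary level and replicate 2 was within it. The log2 change was 0.78 (SE 0.34, adjusted p = 0.51). Mrc1 showed a wider split of the same kind, with 135, 14.0 and 29.6 CPM in the recurrent tumors, where replicate 2 was below all 3 primary untreated tumors.

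Csf1r (0.65, SE 0.30), C1qa (0.68, SE 0.37), C1qb (0.66, SE 0.36), Cd68 (0.42, SE 0.35) and Fcgr1 (0.32, SE 0.37) were fitted higher with the same replicate high, while Csf1 (0.16, SE 0.24) and Trem2 (0.05, SE 0.27) were near 0. All 9 members had a positive fitted change, with a median of 0.65 beside -0.01 over all genes. Of the 9 members 1, C1qc, had an unadjusted p under 0.05, as 9.69% of genes did, and none of 16870 genes passed after adjustment (edgeR), while DESeq2 called 61. Without replicate 1 the median was -0.078, with 2 of 9 positive and 0 of 9 under that p. Without replicate 2 or without replicate 3 more of the 9 had one than with all tumors. The share of all genes is not given for those fits, so this is not read as particular to the members. Leaving out primary untreated replicate 2 or 3, or any of the 5 stavudine tumors, left 0 of 9. None of the 9 members lay wholly above the primary level, where 7.65% of genes did. Marco had 14, 16 and 4 counts in the recurrent tumors, the group that took it past the filter.

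That replicate differed from the other 10 tumors beyond the members. The 6 fibroblast markers summed to 5641 CPM in it and to between 239 and 1818 in the other tumors, and the 6 endothelial markers to 283 beside 66.1 to 155. The 8 monocyte genes summed to 1541 CPM in it and to between 70.7 and 472 in the other tumors. Of the fibroblast markers none was at 0 in that tumor, and 1 was at 0 in primary STV replicate 3. Their part in the members' levels was not tested.

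**Figure D3:**
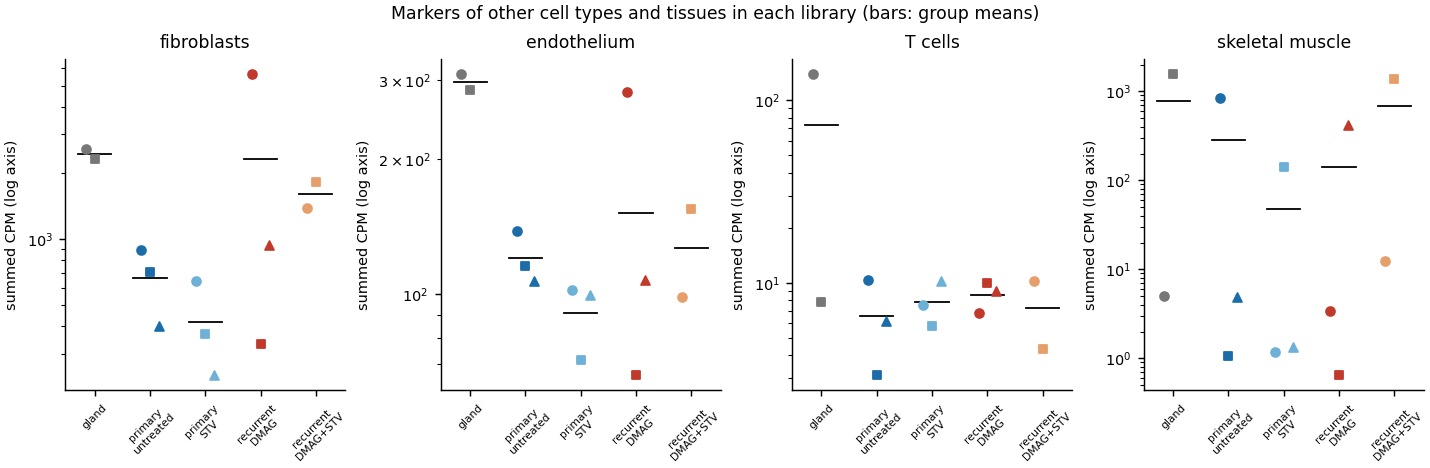
Summed CPM of markers of fibroblasts, endothelium, T cells and skeletal muscle in each library, on log axes, with bars for group means and markers for replicates 1 (circle), 2 (square) and 3 (triangle). Recurrent after DMAG replicate 1 reached 5641 CPM for fibroblasts, mammary gland replicate 1 reached 139 CPM for T cells, and skeletal muscle ran from 0.648 to 1564 CPM within and between groups.

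Recurrence under stavudine gave a fuller separation. Cd68 was at 25.3 and 18.3 CPM in recurrent after DMAG+STV tumors and at 9.09, 10.3 and 13.2 in primary STV tumors. The groups did not overlap, and the log2 change was 1.01 (SE 0.38, adjusted p = 0.461). Trem2, at 12.2 and 6.60 CPM against 4.14, 4.57 and 5.76, had a log2 change of 0.97 (SE 0.30, adjusted p = 0.369). Its replicate 1 was well above the others and replicate 2 only just above the highest primary STV tumor.

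The C1q chains lay alike. C1qb was at 47.1 and 36.8 CPM against 22.5, 24.1 and 24.8, and C1qc at 53.4 and 44.6 against 23.97, 30.1 and 27.3. All recurrent values were above all primary STV values, at log2 changes of 0.82 (SE 0.40) and 0.86 (SE 0.38). Fcgr1, at 5.45 and 4.24 CPM against 3.25, 4.05 and 4.09, was above by a small margin. Csf1r (0.49, SE 0.33), C1qa (0.73, SE 0.41) and Mrc1 (1.39, SE 0.79) lay above as well, with Mrc1 at 25.7 and 45.5 CPM against 18.0, 14.7 and 8.20.

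Of 9 members 8 lay wholly above their primary STV level, all but Csf1, as 17.4% of genes did in this comparison of 2 tumors with 3. Csf1 was at 49.6 and 30.0 CPM against 39.7, 49.5 and 40.8, with its recurrent values on either side. Of 9 members 3, Cd68, C1qc and Trem2, had an unadjusted p under 0.05, as 10.1% of genes did. None of 16870 genes passed after adjustment (edgeR), while DESeq2 called 331 genes. The median log2 change of the 9 members was 0.82 and that of all genes 0.01. Marco had 4 and 2 counts against 0 in each primary STV tumor. A count of 0 allows up to 3, or more where both mates of a pair were counted. Leaving out recurrent after DMAG+STV replicate 1 gave a median of 0.61, with none of the 9 at an unadjusted p under 0.05. Without primary STV replicate 1 or 2, 1 of 9 had one, with the share of all genes not given for those fits. With recurrent after DMAG replicate 1 left out, which enters through the estimate of spread, 7 of 9 had one, as 16.7% of genes did. The fibroblast list was higher as well, at 1389 and 1818 CPM against 239 to 645, and the 7 proliferation genes were lower, at 162 to 367 CPM against 504 to 782. Skeletal muscle genes summed to 1371 CPM in replicate 2. The part of these in the members' levels was not tested.

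Averaged over both water arms, the 5 recurrent tumors were set against the 6 primary tumors. Of 9 members 7 had an unadjusted p under 0.05, all in the higher direction, and the exceptions were Fcgr1 and Csf1. In all genes 13.6% had an unadjusted p under 0.05 in either direction. None of 16870 genes passed after adjustment (edgeR), while DESeq2 called 410 genes and none of the members. The largest fitted changes among members other than Marco were those of Mrc1 (1.29, SE 0.54, adjusted p = 0.346) and C1qc (0.82, SE 0.26, adjusted p = 0.313). C1qb (0.74), Cd68 (0.72), C1qa (0.71), Csf1r (0.57) and Trem2 (0.51) lay between, Fcgr1 was at 0.34 (SE 0.28) and Csf1 at 0.02 (SE 0.18).

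The median log2 change of the 9 members was 0.71, and 0.00 over all genes. Without recurrent after DMAG replicate 1 the median was 0.41, with 5 of 9 members at an unadjusted p under 0.05 (Csf1r, Cd68 and the 3 C1q chains) beside 10.8% of genes. Without recurrent after DMAG+STV replicate 1, which leaves 1 tumor in that group, the median was 0.60. Without primary untreated replicate 2 it was 0.69, with 3 of 9 members at that p beside 11.2% of genes. Leaving out primary untreated replicate 3, primary STV replicate 1 or primary STV replicate 3 left 4 of 9, beside 8.8%, 10.9% and 11.9% of genes. Without the 3 tumors richest in skeletal muscle RNA the median was 0.87.

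**Figure D4:**
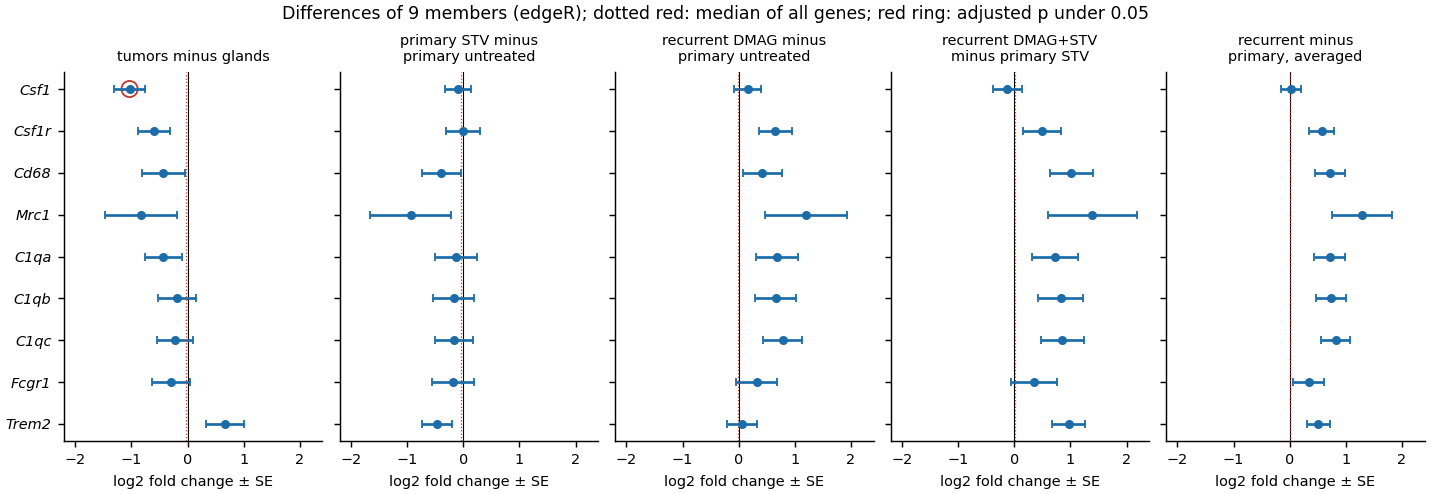
Log2 fold change with its SE (edgeR) of 9 members in 5 comparisons, Marco being left out for its low counts. The dotted red line is the median of all genes, and the red ring marks the 1 change with an adjusted p under 0.05, that of Csf1 between tumors and glands (-1.03); in the averaged comparison Csf1 sits at 0.02 and the other 8 members between 0.34 and 1.29.

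Between recurrent tumors with and without stavudine the fitted changes ran from -0.74 for Mrc1 to 0.45 for Trem2 among the 9 members. Csf1 was at -0.37 (SE 0.27), and the median of the 9 was -0.09. No unadjusted p of these 9 was under 0.05. The outcome turned on 1 library: without recurrent after DMAG replicate 1 the median was 0.62, 8 of 9 members were positive and 4 (Cd68 and the C1q chains) had an unadjusted p under 0.05, beside 12.2% of genes. Leaving out recurrent after DMAG+STV replicate 1 or 2 leaves 1 tumor in that group, so no count is given for those fits. The interaction, which asks whether recurrence moves a gene differently under stavudine, gave 1 of 9 members an unadjusted p under 0.05, as 7.84% of genes had. This was Trem2, at 0.92 (SE 0.40, adjusted p = 0.627). Cd68 was at 0.59 (SE 0.52), Mrc1 at 0.19, C1qb at 0.17, Csf1r at -0.16 and Csf1 at -0.28, and C1qa, C1qc and Fcgr1 were closer to 0. Without recurrent after DMAG replicate 1, 6 of 9 had one, beside 13.4% of genes, and the median went from 0.07 to 0.73. In 8 of the 10 other omissions of a single tumor none of the 9 had one, and without primary STV replicate 3 or recurrent after DMAG+STV replicate 2 1 did. None of 16870 genes passed in either comparison with all 11 tumors (edgeR), where 1323 and 1322 genes had an unadjusted p under 0.05 and DESeq2 called 266 and 189.

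The ligand was followed against its receptor across the tumors. Over 11 tumors Csf1 and Csf1r had a Pearson r of 0.59 (permutation test, two-sided, p = 0.0772, adjusted over 2 relations 0.154) and a Spearman rho of 0.45 (permutation p = 0.176, adjusted 0.183). Without the 2 tumors farthest from the median of Csf1, recurrent after DMAG+STV replicate 2 and recurrent after DMAG replicate 1, r was 0.68. It rested on single tumors: without recurrent after DMAG replicate 1 alone r was 0.07, and without recurrent after DMAG+STV replicate 2 alone it was 0.90. The r of deviations from the group means was 0.80.

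Il34, the other ligand, was far lower, at 2.65 to 5.95 CPM in the tumors. Its r with Csf1r was 0.45 (permutation p = 0.164, adjusted 0.164) and its rho 0.44 (permutation p = 0.183, adjusted 0.183). Without primary STV replicate 2 and recurrent after DMAG replicate 3, the tumors farthest from its median, r was 0.73, and for the deviations from group means it was 0.31. Neither ligand passed the test.

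**Figure D5:**
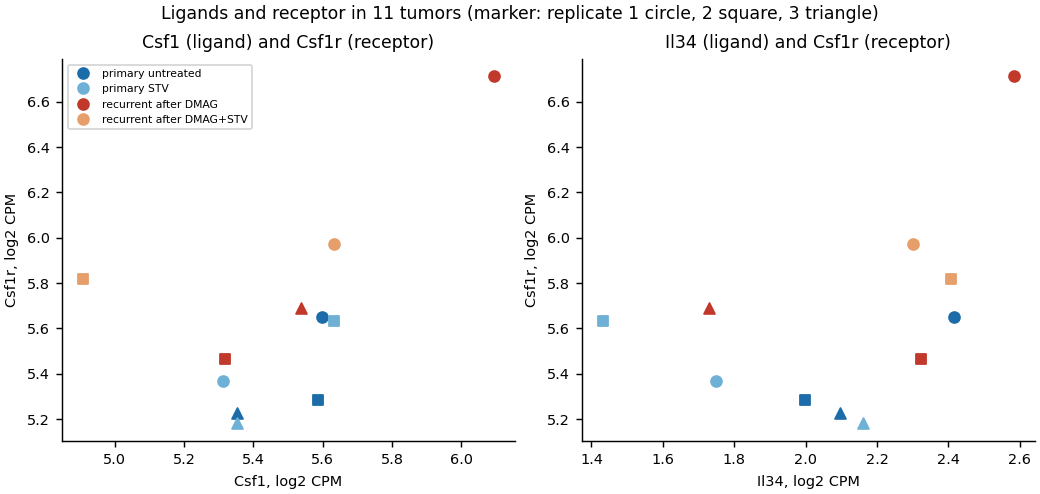
Csf1 (left) and Il34 (right) against Csf1r in the 11 tumors, all in log2 CPM, colored by tumor group, with markers for replicates 1 (circle), 2 (square) and 3 (triangle). Recurrent after DMAG replicate 1 (red circle) is highest on all 3 genes, and r for Csf1 is 0.59 with it and 0.07 without it.

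Set against Csf1r within each library, Csf1 separated recurrent from primary tumors. Per exon base it was 99.9%, 128% and 113% of Csf1r in primary untreated tumors and 99.5%, 104% and 117% in primary STV tumors. In recurrent after DMAG tumors it was 67.5%, 93.5% and 93.0%, and in recurrent after DMAG+STV tumors 81.9% and 55.0%. All 5 recurrent tumors were below all 6 primary tumors, and the ratio to Csf1r of 3.2% of genes was placed so. This was singled out after its values were seen and carries no test. Mrc1 varied most relative to Csf1r, from 20.6% in primary STV replicate 3 to 117% in recurrent after DMAG replicate 1.

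The 3 C1q chains kept nearly fixed proportions. They lie side by side on chromosome 4 (C1qb at chr4:136880129-136886187, C1qc at chr4:136889804-136893065 and C1qa at chr4:136895917-136898803, all on the minus strand in GENCODE, GRCm38), within 18675 bases. Per exon base C1qa took 38.7% to 41.8% of the C1q signal in the tumors, C1qb 27.4% to 31.5% and C1qc 28.7% to 32.9%. Mammary gland replicate 2 was outside, with 47.7% for C1qa. Their pairwise r over the 11 tumors was 0.98 to 0.99, across libraries that share the high replicate.

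Csf1r was most like C1qc among the members (r = 0.94) and least like Trem2 (r = 0.54), as a description over 11 tumors that 1 tumor weighs on. Among the 13010 genes whose log2 CPM averaged 1 or more, those most like Csf1r outside the set were Axl (r = 0.97), Camk1d (0.97), Pirb (0.96), Slc43a3 (0.96) and B3gnt9 (0.95). Those most like Csf1 were Tcf20 (0.91), Slc38a6 (0.90), Sh3d19 (0.90), Wdr90 (0.89) and Nfe2l3 (0.88), and the nearest member was Csf1r, at rank 809.

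Other genes of the macrophage were read from 10 lists of 6 to 11 genes. Between tumors and glands the 10 other macrophage markers had 0 genes passing, with a median of -0.27. Of the 10, 3 had an unadjusted p under 0.05, as 29.6% of all genes did. Mertk (-0.87, adjusted p = 0.0574) and Cx3cr1 (0.62, adjusted p = 0.07) came nearest to passing. Most other lists held genes that fell in tumors. In the list of ligands and lineage factors Csf2rb fell (-3.07, adjusted p = 0.00984) and Cebpb rose (0.72, adjusted p = 0.0146), with 3 lower and 1 higher of 10 tested. Among TREM2 signalling and lipid genes 5 of 11 were lower, with Lpl (-5.34, adjusted p = 0.0011), a lipase also made by fat cells and lactating epithelium, and Syk (-2.23, adjusted p = 0.00947).

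Of 8 genes of resident macrophages 2 fell, Timd4 (-4.57, adjusted p = 0.0185) and Siglec1 (-1.999, adjusted p = 0.0291), and of the monocyte genes Ly6c2 fell (-4.49, adjusted p = 0.00238). Of 7 complement partners 4 were lower, led by C4b (-2.52, adjusted p = 0.0182) and C4a (-1.33, adjusted p = 0.0275), a near copy of it. Scavenger and lectin receptors gave 2 lower of 10, Stab2 and Clec7a, other Fc receptors 1 of 6, Fcer2a (with Fcgrt next, adjusted p = 0.26), and inflammatory genes 2 of 9, Cxcl9 and Cd86. Of 8 alternative activation genes 2 fell, Ccl22 and Pdcd1lg2, and Arg1, which encodes arginase, rose (2.33, adjusted p = 0.0273).

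Over the 10 lists 25 of 87 genes passed between tumors and glands, beside 10.4% of all genes. Leaving out mammary gland replicate 1, the gland with the high T cell list, or replicate 2 leaves a single gland. Counts of passing genes are therefore not compared between those fits. Cxcl9, Lpl and Ly6c2 passed in all 13 omissions of a single library. Ccl22 was at 14.4 and 0.856 CPM in the glands and at up to 0.787 in the tumors, and Pdcd1lg2 at 1.82 and 0.214 CPM and at up to 0.221. Both stood out in replicate 1 alone. Without that gland Ccl22 was at -1.46 (adjusted p = 0.267) and Pdcd1lg2 at -0.55 (adjusted p = 0.688), and Timd4 (-0.50), Stab2 (-1.21), Fcer2a (0.12), Syk (-1.31), Siglec1, Cd86 and Clec7a did not pass either. The part of lymphoid tissue in these changes was not tested. Without mammary gland replicate 2, the gland with the low TMM factor, C4b was at -0.56 (adjusted p = 0.739) and C4a at -0.34 (adjusted p = 0.70), and Csf2rb, Cebpb, Arg1, Siglec1, Cd86 and Clec7a did not pass. Clec7a passed in 1 of the 13 omissions, that of recurrent after DMAG replicate 1, and Cd86 in 2, that one and the omission of recurrent after DMAG+STV replicate 1. C4a, Siglec1 and Timd4 did not pass without either recurrent after DMAG+STV tumor, nor C4a and Siglec1 without primary untreated replicate 3, nor Siglec1 without recurrent after DMAG replicate 3.

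Between recurrent and primary tumors, averaged over both arms, no gene of these lists passed after adjustment (edgeR). All 10 medians were positive, from 0.47 for alternative activation to 1.44 for complement partners, beside 0.00 over all genes. They include genes that passed the filter on low counts only through recurrent tumors, Csf3 and Clec4e among them. Since Clec4e is in the list of scavenger and lectin receptors, no p is counted for that list. Of the other lists, TREM2 signalling and lipid genes had the largest count at an unadjusted p under 0.05 (9 of 11). Inflammatory and alternative activation had the smallest (1 of 9 and 1 of 8), beside 13.6% of all genes. In the fit without recurrent after DMAG replicate 1, the tumor with the high fibroblast, endothelial and monocyte sums, they were 8 of 11, 6 of 10, 1 of 9 and 1 of 8, beside 10.8% of genes. The medians then ran from -0.016 for alternative activation to 0.69 for complement partners. The count of the TREM2 list was lower without recurrent after DMAG+STV replicate 1, which leaves 1 tumor in that group. In the list of ligands and lineage factors Cebpb was at 0.38 (SE 0.11). Among complement partners C4b was at 2.33 (SE 0.41) and Serping1, the C1 inhibitor, at 1.68 (SE 0.58), or 1.06 without recurrent after DMAG replicate 1.

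The lipid-associated genes Gpnmb and Spp1 were at log2 changes of 3.28 (SE 0.78) and 5.23 (SE 1.34) in the averaged comparison. Spp1 was at 2984 CPM in recurrent after DMAG replicate 1 and at 24.7 and 37.4 in replicates 2 and 3, beside 36.5, 97.0 and 87.8 in primary untreated tumors. It was at 4346 and 631 CPM in recurrent after DMAG+STV tumors and at 54.3, 6.22 and 12.0 in primary STV tumors. The changes were 2.72 (SE 0.71) for Spp1 and 2.44 (SE 0.61) for Gpnmb without recurrent after DMAG replicate 1. The lectins Clec4d and Clec7a were at 2.05 (SE 0.57) and 0.92 (SE 0.27), and the low affinity IgG receptors Fcgr2b and Fcgr3 at 1.28 (SE 0.45) and 0.96 (SE 0.38). Lyz2, which encodes lysozyme, and Cd14 led the other macrophage markers at 1.35 (SE 0.37) and 1.51 (SE 0.42). Cd163 and Cbr2 led the resident genes (1.78 and 2.57), and Ptgs2 and Il1b the inflammatory genes (3.28 and 1.11). Arg1 and Ccl24 led the alternative activation genes (-2.05 and 1.37). Among monocyte genes Ccl2 was at 1.00, and Chil3 passed the filter on low counts only with recurrent after DMAG replicate 1. Of these genes Arg1 alone was fitted lower in recurrent tumors. Ptgs2 was at 20.8 CPM in recurrent after DMAG replicate 1 and between 0.169 and 3.75 CPM in the other tumors. Without that tumor Ptgs2 was at 1.40 (SE 0.53), Il1b at 0.63 (SE 0.41), Ccl24 at 0.58, Fcgr2b at 0.59, Fcgr3 at 0.43 and Lyz2 at 0.88, and Chil3 was not tested. Cd14 was at 0.62 (SE 0.29) without recurrent after DMAG+STV replicate 1.

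Gpnmb, a lysosomal glycoprotein of lipid-loaded macrophages, was at 26.1 and 22.7 CPM in recurrent after DMAG+STV tumors. It was at 0.368, 1.07 and 0.148 CPM in primary STV tumors, 1.75, 2.49 and 8.52 in primary untreated tumors and 20.9, 1.47 and 3.90 in recurrent after DMAG tumors. Both tumors regrown under the 2 drugs were above every other tumor. Against primary STV the log2 change was 5.53 (SE 1.23, adjusted p = 0.292).

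Cd163, a hemoglobin scavenger receptor, was at 23.5 and 83.7 CPM in recurrent after DMAG+STV tumors and at 3.59, 6.29 and 2.19 CPM in primary STV tumors. These groups did not overlap (3.74, SE 0.77, adjusted p = 0.288). Arg1 went the other way, at 28.8 and 12.6 CPM against 298, 144 and 95.9 (-3.11, SE 0.61, adjusted p = 0.254), again without overlap. Gpnmb, Cd163 and Arg1 were singled out after their values were seen, and none of them passed the test.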

How the data were processed

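RNA from 13 frozen tissue samples was depleted of ribosomal RNA and sequenced. Per the submitters' processing notes bcl2fastq 2.20, STAR and featureCounts of Subread 1.6.2 were used on mm10 (GRCm38). The settings for strand and mates are not given in the sources used here. The authors deposited 1 table of raw counts per gene, and among counts of 1 to 4 between 77.7% and 81.9% were even, so low counts may hold both mates of a pair. Libraries were fitted with edgeR 4.0.16 (R 4.3.3; TMM, filterByExpr, robust quasi-likelihood test, Benjamini-Hochberg over all genes, threshold 0.05), all 13 for tumors against glands (17135 genes) and the 11 tumors otherwise (16870 genes). Marco passed the filter among tumors only through the recurrent tumors and is left out of counts of members between tumor groups. Log2 CPM used a prior count of 2, and correlations 100000 permutations. DESeq2 1.42.0 and limma 3.58.1 were alternatives. Exon lengths came from GENCODE. Nothing states that the samples of a group came from separate mice, and p-values then measure only the spread between them. Floors of 3 counts cover counting error only, and are too low where both mates of a pair were counted. Scripts were tested on simulated data. Members, lists and alternatives were chosen with earlier results of these data known, and the rule for named genes took the members, with the 2 genes of smallest p per list where a list is described, apart from genes that are not reported here.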

Additional observations from a re-analysis of the deposited data

How the results depend on the processing

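Values are log2 changes unless said to be counts of genes passing. The direction and side of the threshold held in 1346 refits of a single gene, 83 turned in direction, 19 lost the call and 3 gained it, and apart from what the construction of a setting shows, the cause was not tested. Between tumors and glands 371 genes passed with the replicate block, 285 without the 3 muscle-rich tumors, 3242 with DESeq2, 361 with primary untreated tumors alone and 489 with library totals only. Members passing numbered 1 with at least 10 counts in every library, 1 with halved counts and 1 with library totals, and 0 with the replicate block, without the muscle-rich tumors, with limma voom and with primary untreated tumors alone. Library totals gave C1qb 0.068, C1qc 0.039 and Fcgr1 0.067.

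Csf1r under stavudine in primary tumors, near 0, turned to 0.0097 with DESeq2 size factors and in DESeq2, to 0.018 with no filter and without milk, muscle and adipocyte genes, to 0.016 with the groups compared alone, to 0.0021 with at least 10 counts in every library, and to 0.17 without the muscle-rich tumors. Without the muscle-rich tumors Csf1 between recurrent after DMAG+STV and primary STV was 0.19, the interaction was -1.02 for Mrc1, -0.10 for C1qa and -0.057 for C1qc, and 1 gene passed between recurrent after DMAG and primary untreated. With limma voom, C1qa was 0.13, C1qb 0.19 and C1qc 0.081 between recurrent tumors with and without stavudine, Csf1 was -0.018 in the averaged comparison, and the interaction of Marco was -0.30. DESeq2 passed 17 genes for stavudine, 61 for recurrence after DMAG, 331 for recurrence under stavudine, 266 between recurrent tumors, 410 averaged and 189 for the interaction. With the compared groups alone 2 genes passed for recurrence under stavudine.

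The same replicate number did not pair samples: over 15 pairs r of their deviations ran from -0.30 to 0.22, with 3 over 0.1. The fit with the replicate block turned Csf1r under stavudine to 0.019, C1qb between recurrent tumors to 0.0085 and Csf1 in the averaged comparison to -0.0501, and members passing between tumors and glands went to 0.

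Leaving out single libraries gave these ranges. Between tumors and glands genes passing ran from 535 to 4255 and members passing from 1 to 4, with C1qb from -0.41 to 0.23, C1qc from -0.44 to 0.20, Cd68 from -0.89 to 0.49, Mrc1 from -1.27 to 0.0198 and Marco from -9.42 to 3.63. Under stavudine Csf1r ran from -0.12 to 0.14 and Fcgr1 from -0.32 to 0.017. For recurrence after DMAG 0 to 1 genes passed, with C1qa from -0.0035 to 1.01, C1qb from -0.0026 to 0.97, Cd68 from -0.10 to 0.69, Csf1 from -0.078 to 0.34, Fcgr1 from -0.19 to 0.61, Mrc1 from -0.24 to 1.68 and Trem2 from -0.13 to 0.19. For recurrence under stavudine 0 to 100 genes passed, with Csf1 from -0.54 to 0.19. Between recurrent tumors 0 to 141 genes passed, with Csf1r from -0.41 to 0.31, Cd68 from -0.0598 to 0.75, Mrc1 from -1.22 to 0.70, C1qa from -0.39 to 0.62, C1qb from -0.30 to 0.67, C1qc from -0.38 to 0.53, Fcgr1 from -0.42 to 0.39 and Trem2 from -0.072 to 0.82. In the averaged comparison 0 to 6 genes passed, with Csf1 from -0.18 to 0.19. For the interaction 0 to 77 genes passed, with Csf1r from -0.42 to 0.30, Mrc1 from -0.31 to 1.62, C1qa from -0.29 to 0.73, C1qb from -0.15 to 0.82, C1qc from -0.24 to 0.68, Fcgr1 from -0.27 to 0.54 and Csf1 from -0.72 to 0.0070. The r of Csf1 with Csf1r ran from 0.065 to 0.90.

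Depth limits Marco alone of the members, since its counts in tumors lie near the 3 counts that a count of 0 allows. The few samples per group limit the other members.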

Other observations

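Other cell types were read in the averaged comparison of recurrent with primary tumors, where no gene passed after adjustment (edgeR). Of 6 fibroblast markers 4 had an unadjusted p under 0.05, beside 13.6% of all genes. Col1a1 was at a log2 change of 2.05 (SE 0.61, adjusted p = 0.296). Of 5 neutrophil genes tested 3 were fitted higher. Among these genes S100a8, a calprotectin subunit, and Mmp8 passed the filter on low counts only through the recurrent tumors, so no p is counted. S100a8 had 80, 14 and 10 counts in recurrent after DMAG tumors and 82 and 222 in recurrent after DMAG+STV tumors. In primary tumors it had between 0 and 10. S100a9, the other subunit, had 79, 6 and 6 counts in recurrent after DMAG tumors and 8 and 4 in recurrent after DMAG+STV tumors. Of 8 T cell genes tested 1 had an unadjusted p under 0.05, beside the same 13.6% of genes. This was Cd4 at 1.00 (SE 0.41), a gene that macrophages can also express. Epcam, an epithelial adhesion gene, was at -0.59 (SE 0.16, adjusted p = 0.287), and the 7 proliferation genes had a median of -0.28. That average covers opposite arms. Without stavudine all 7 were fitted higher in recurrent tumors, with a median of 0.48. None of the 7 had an unadjusted p under 0.05, beside 9.69% of genes. Under stavudine all 7 were fitted lower, with a median of -1.09 and 7 of 7 at an unadjusted p under 0.05, beside 10.1% of genes. The interaction had a median of -1.59, again with 7 of 7 at an unadjusted p under 0.05 beside 7.84% of genes, and 0 of 7 passed after adjustment. It had 7 of 7 in each omission of a single tumor. When recurrent after DMAG+STV replicate 1 was left out, which leaves 1 tumor in that group, the median was -1.79 in the stavudine arm and -0.63 in the average. When replicate 2 was left out, the averaged median was -0.057 and that of the stavudine arm -0.64. In the arm without stavudine, leaving out either of these tumors raised the count at an unadjusted p under 0.05 above 0 of 7. It was 1 of 7 without primary STV replicate 1 or 2. The share of all genes is not given for those fits. How far these go together with the macrophage genes was not tested.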
